A study of Mus musculus with 9 samples.

Results

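The transcripts followed here, in liver macrophages, are those of Bcl6 and of the Bcl2 family, whose members set the threshold for apoptosis. The family members followed are the pro-survival genes Mcl1, Bcl2 and Bcl2l1, the BH3-only genes Bcl2l11, Bbc3, Bid and Bad, and the effector genes Bax and Bak1. With Bcl6, these make the 10 features whose symbol matched one of these names, among 59445 features in the deposited table. Each name matched a single feature. The set was chosen by gene name with the normalized values and genotype differences of these libraries already known, so their differences between genotypes are given as a description, without a p-value. Proteins of the Bcl2 family meet at the outer membrane of the mitochondrion. Pro-survival members hold BAX and BAK in check, BH3-only members bind and neutralise the pro-survival members or switch on BAX and BAK directly, and active BAX and BAK open pores that release cytochrome c and start the caspase cascade. BCL6 is a BTB and zinc-finger transcriptional repressor, best known from germinal centre B cells, that also restrains inflammatory genes in macrophages.

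The macrophages were sorted as F4/80+ CD11b+ cells from non-parenchymal liver cells of male C57BL/6 mice. The hepatotoxin carbon tetrachloride (CCl4), at a labelled dose of 0.6 mg/kg, had been injected into the peritoneum of all mice 24 h earlier. There were 5 MAGL Mye-/- mice (S8 to S12; S9, S10 and S11 were 10 weeks old, S8 and S12 were 11 weeks old) and 4 MAGL fl/fl mice, all 11 weeks old (S1, S3, S4, S5). Values of single libraries are given in these orders. MAGL is monoacylglycerol lipase, which cleaves the endocannabinoid 2-arachidonoylglycerol and is encoded by Mgll. No uninjured liver was part of the comparison, the Cre driver and the deleted part of Mgll are not stated in the labels, and age was partly tied to genotype. The labels do not say whether the samples of a genotype were prepared independently, so p-values measure the spread between these samples.

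Libraries held 33383559 to 46489349 reads. The targeted gene, Mgll, was near the detection limit, at 30.4, 46.6, 5.93, 42.7 and 0 normalized reads in Mye-/- and at 18.6, 0, 106 and 22.8 in fl/fl, so it did not check the labels. Macrophage markers were abundant, with a summed level of 262485 to 328460 in Mye-/- and 327681 to 528675 in fl/fl, 65.0% of it from lysozyme (Lyz2 // Lyz1), and 5 of the 6 features were higher on average in Mye-/-. Libraries also carried small amounts of other cells' transcripts. Summed hepatocyte markers ran from 1223 to 10732 normalized reads in Mye-/-, highest in S10, and from 659 to 1888 in fl/fl. Kupffer cells are resident liver macrophages, so their markers are not counted here as those of other cells. Summed Kupffer cell markers ran from 205 to 1992 in Mye-/-, again highest in S10, and from 63.3 to 567 in fl/fl. Mitochondrially encoded transcripts made up 3.93% to 7.09% of normalized reads in Mye-/- and 3.49% to 9.45% in fl/fl, highest in fl/fl S3. Summed platelet and erythroid markers ran from 2077 to 4765 in Mye-/- and from 4658 to 25690 in fl/fl, highest in fl/fl S3, with 2 of 6 features higher on average in Mye-/-. The part of these cells in the differences below was not tested. In bulk RNA, fewer cells of a type and less RNA per cell cannot be told apart.

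Promoter sequence is shown first for the 4 genes in which a short recognition motif of a known regulator was found. Each window is the 250 bases before a RefSeq transcription start (GRCm38.p6, the assembly of mm10), written 5′ to 3′ on the gene's strand. Capitals mark matches, on either strand, to TTCNNNGAA (the core bound by STAT factors), TGTTTAC (the core bound by FOXO factors) or TGACGT (the cAMP response element half-site). Bcl6 has 2 such windows, both on the minus strand of chromosome 16. Window 1 precedes the first annotated exon, at chr16:23988853-23989102, and window 2 precedes an alternative start inside an intron of the longer transcript, at chr16:23981284-23981533. The Bcl2l11 window lies at chr2:128125788-128126037 (plus strand), the Bbc3 window before an internal start at chr7:16310011-16310260 (plus strand) and the Bcl2 window at chr1:106714291-106714540 (minus strand).
Bcl6 window 1: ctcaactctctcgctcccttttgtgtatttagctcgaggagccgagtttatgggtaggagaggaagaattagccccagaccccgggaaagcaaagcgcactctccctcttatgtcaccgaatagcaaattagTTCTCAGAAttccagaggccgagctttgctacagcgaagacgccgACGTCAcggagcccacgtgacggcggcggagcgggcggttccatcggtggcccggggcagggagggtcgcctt
Bcl6 window 2: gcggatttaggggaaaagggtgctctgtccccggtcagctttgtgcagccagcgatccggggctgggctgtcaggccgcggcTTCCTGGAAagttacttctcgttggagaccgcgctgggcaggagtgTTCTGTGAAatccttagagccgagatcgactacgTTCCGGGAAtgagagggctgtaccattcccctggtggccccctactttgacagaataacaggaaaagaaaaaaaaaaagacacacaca
Bcl2l11: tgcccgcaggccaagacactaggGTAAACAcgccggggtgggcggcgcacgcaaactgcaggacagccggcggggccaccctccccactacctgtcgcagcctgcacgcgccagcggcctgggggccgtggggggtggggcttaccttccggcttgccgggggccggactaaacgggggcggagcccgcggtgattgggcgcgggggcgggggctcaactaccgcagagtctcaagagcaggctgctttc
Bbc3: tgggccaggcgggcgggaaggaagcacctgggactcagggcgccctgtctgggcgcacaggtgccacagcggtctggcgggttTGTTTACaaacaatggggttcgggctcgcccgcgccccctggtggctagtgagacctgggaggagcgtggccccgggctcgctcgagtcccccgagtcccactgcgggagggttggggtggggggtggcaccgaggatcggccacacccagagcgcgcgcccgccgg
Bcl2: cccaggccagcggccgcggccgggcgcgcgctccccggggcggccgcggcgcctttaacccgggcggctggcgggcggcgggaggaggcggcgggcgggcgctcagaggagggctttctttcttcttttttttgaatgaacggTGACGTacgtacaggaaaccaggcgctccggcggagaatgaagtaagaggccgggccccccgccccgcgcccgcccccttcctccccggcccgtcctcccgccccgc
Window 2 of Bcl6 holds 3 matches to the STAT core, TTCCTGGAA, TTCTGTGAA and TTCCGGGAA, and window 1 holds TTCTCAGAA. Of 32851 promoter windows of this length in the RefSeq table, 7.02% hold at least 1 such match and 0.0274% hold 3 or more. The cut of 3 equals the count in this Bcl6 window, 1 of 17 windows searched for each motif, so that share is a description. The STAT core reads the same on both strands and did not overlap another searched motif in these windows. A FOXO core was found in 3.17% of all windows, and in 1 window each of Bcl2l11 and Bbc3, both known FOXO3 target genes. The cAMP half-site was found in 6.47% of all windows, and in 1 window each of Bcl6 and Bcl2. Of the 17 windows of the 10 genes, the other 12 held none of these letters. These matches describe sequence and were not tested for binding.

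Bcl6 (GSMG0015583, chr16:23965050-23988852 of mm10, minus strand) was the gene whose values separated the genotypes. It was at 4212, 6606, 5581, 3934 and 4289 normalized reads in Mye-/-, and at 2218, 3252, 3178 and 3142 in fl/fl. All 5 Mye-/- values lay above all 4 fl/fl values, with S9 and S10 highest and fl/fl S1 lowest. The means were 4924 ± 1135 in Mye-/- (SD, n = 5) and 2948 ± 489 in fl/fl (SD, n = 4), 1.67 times as high in Mye-/-. On the log2(value + 1) scale the difference was 0.73 ± 0.18 (SE), and over 23 alternative analyses it ran from 0.54 to 0.80. The lower end came from the 11-week-old mice alone, where Mye-/- S8 and S12 still lay above every fl/fl value.

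**Figure D1:**
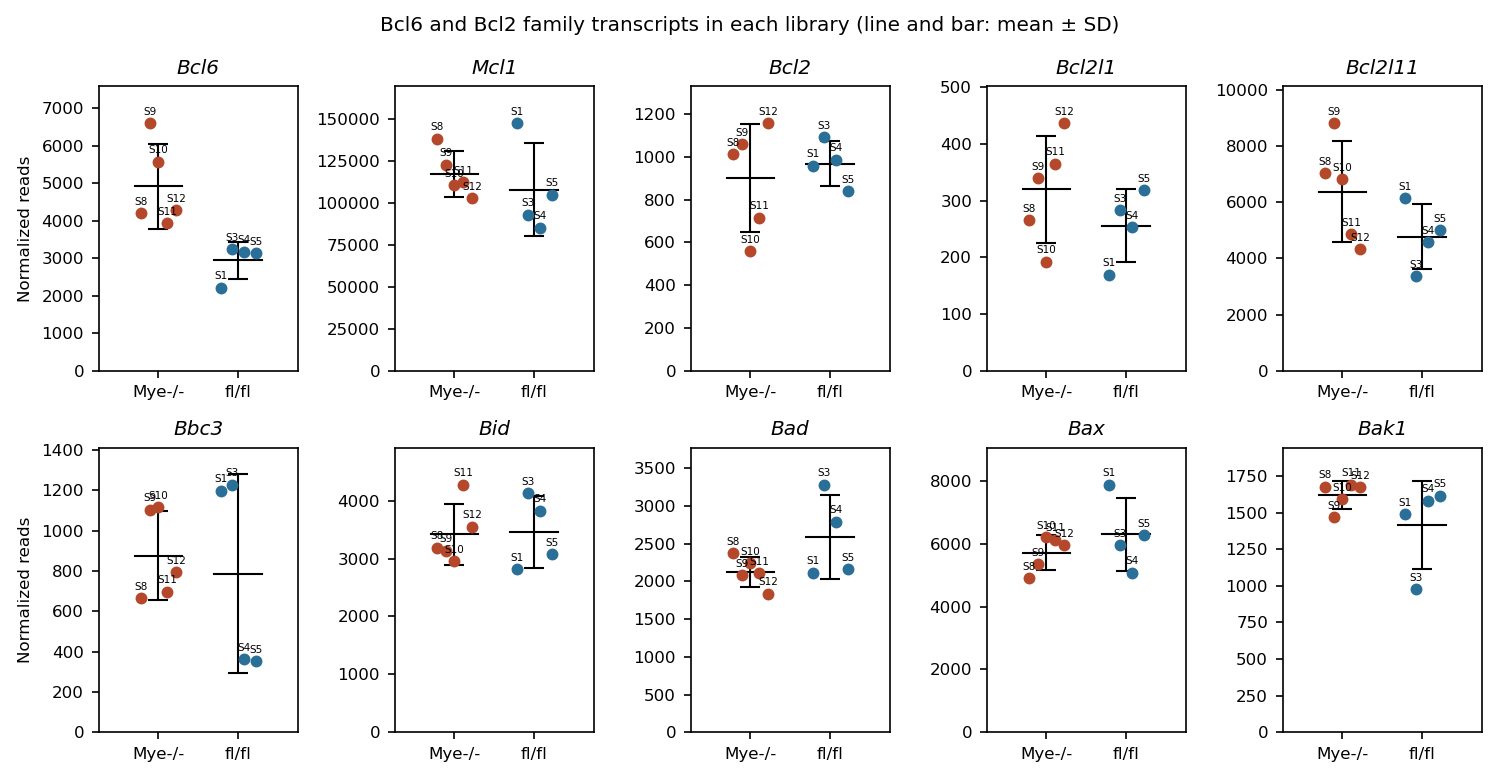
Normalized reads of the 10 genes in each library (y axis, linear from 0, scaled per gene), with MAGL Mye-/- left and MAGL fl/fl right; points are libraries, the horizontal line is the mean and the bar the SD. Bcl6 is the panel in which the genotypes do not overlap, and fl/fl Bbc3 is at 1198 and 1227 in S1 and S3 and at 364 and 353 in S4 and S5.

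Inside the Bcl6 locus but outside its annotated exons, the unnamed features with reads did not separate the genotypes. Other intronic reads were not counted. The unnamed feature GSMG0015584, within an intron at chr16:23981313-23983390, was at 433, 1012, 295, 463 and 425 in Mye-/- and at 422, 417, 343 and 609 in fl/fl. Its span overlaps Bcl6 promoter window 2 (chr16:23981284-23981533), including the 3 STAT matches there. The other intronic feature with reads, GSMG0015585, averaged 302 ± 131 in Mye-/- and 267 ± 186 in fl/fl. GSMG0015584 was high in S9, which also had the highest Bcl6, but lowest in S10, which had the next highest Bcl6.

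Other cell types were looked at beside Bcl6 because B and T lymphocytes and granulocytes also transcribe it. Summed B cell markers were at 71.6 to 166 normalized reads in Mye-/- and 137 to 176 in fl/fl, and the B lineage factors Pax5 and Ebf1 were at 0 in all 9 libraries. Summed T and NK cell markers ran from 81.2 to 725 in Mye-/- and from 84.7 to 704 in fl/fl. Neutrophil markers, 91.8% of them Mmp8, ran from 2923 to 7313 in Mye-/- and from 4617 to 7406 in fl/fl. Features higher on average in Mye-/- were 7 of 10 for neutrophils, 4 of 9 for T and NK cells and 1 of 6 for B cells. Dendritic cell markers ran from 343 to 1212 in Mye-/- and from 219 to 524 in fl/fl, with 3 of 6 features higher on average in Mye-/-, and Siglech and Xcr1 at 0 throughout. Markers of Kupffer cells, which are themselves macrophages, were higher on average in Mye-/- for 5 of 6 features, and hepatocyte markers for 7 of 8. Without Mye-/- S10, the library richest in Kupffer cell and hepatocyte transcripts, the Bcl6 difference was 0.68 on the log2 scale. That value still includes Mye-/- S11, the library richest in dendritic cell and in T and NK cell transcripts. The part of any of these cells in the Bcl6 difference was not tested.

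The features whose profile over the 9 libraries lay closest to that of Bcl6 were Taok2, Gramd1a, Csf3r and Arrb1. Closeness was the mean absolute gap between log2 profiles centred on their own means, at 0.09, 0.12, 0.14 and 0.15, against a median of 0.43 over 6762 named features with a mean of at least 500. Taok2, a protein kinase, was at 3179, 4001, 3756, 2892 and 3143 in Mye-/- and at 1677, 2251, 2700 and 2238 in fl/fl. Like Bcl6, it did not overlap between genotypes, beside 3.30% of all features, and peaked in S9. These features were picked for likeness to Bcl6 in these same libraries, so what they share with it is a description. Csf3r, the receptor for granulocyte colony-stimulating factor, averaged 4390 ± 673 in Mye-/- and 3239 ± 725 in fl/fl, with overlapping values.

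Mcl1 (chr3:95658721-95663176, plus strand) encodes a short-lived pro-survival protein on which myeloid cells are known to depend. Its values were 138301, 122802, 110729, 112551 and 102862 normalized reads in Mye-/-, and 147572, 93154, 85416 and 105032 in fl/fl. The highest value of all was in fl/fl S1 and the lowest in fl/fl S4, so the Mye-/- values sat inside the fl/fl range. The log2 difference was 0.15 ± 0.18 (SE). Leaving out fl/fl S1 gave 0.31, leaving out Mye-/- S8 or fl/fl S3 gave 0.09, and leaving out fl/fl S4 gave 0.05. Features with profiles closest to Mcl1 were Urm1, Atf4, Pmpcb and Tra2a, with mean absolute gaps of 0.08 to 0.09 against a median of 0.31. Of these, Atf4, a transcription factor of the integrated stress response, was likewise highest in fl/fl S1, at 23154, although it was picked for this likeness.

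Bcl2 (chr1:106538176-106714290, minus strand), the founding member of the family, was at 1014, 1060, 560, 716 and 1157 in Mye-/- and at 959, 1091, 986 and 838 in fl/fl. Mye-/- values spread on both sides of the fl/fl range, with S10 and S11 below it and S12 above it. Its log2 difference was -0.15 ± 0.25 (SE). It was above 0 without Mye-/- S10, at 0.01, and among 11-week-old mice, at 0.17, and between -0.25 (without Mye-/- S12) and -0.08 (without Mye-/- S11) with any other single library left out. The gene Bcl2l1 (chr2:152758732-152831728, minus strand) encodes BCL-XL and, by alternative splicing, the pro-apoptotic BCL-XS, which a count per gene does not separate. It was at 266, 339, 192, 365 and 436 in Mye-/- and at 169, 283, 253 and 319 in fl/fl. Mye-/- S9, S11 and S12 lay above all fl/fl values and S10 lay near the bottom, and the log2 difference was 0.30 ± 0.41 (SE). Without fl/fl S1 it was 0.12, without Mye-/- S12 it was 0.18 and without Mye-/- S10 it was 0.47. It rested on as few as 146 reads in a library.

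Among the BH3-only genes, Bcl2l11 (chr2:128126037-128162550, plus strand) encodes BIM, which activates BAX and BAK and binds every pro-survival member named here. It was at 7026, 8808, 6824, 4862 and 4338 in Mye-/- and at 6146, 3362, 4574 and 4997 in fl/fl. Mye-/- S8, S9 and S10 exceeded every fl/fl value, whereas S11 and S12 lay within the fl/fl range. On the log2 scale the difference was 0.40 ± 0.20 (SE), with 0.25 without fl/fl S3 and 0.24 among 11-week-old mice. S9 was the highest library for both Bcl2l11 and Bcl6.

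Bbc3 (chr7:16309583-16318334, plus strand) encodes PUMA, a p53-induced BH3-only protein. It was at 665, 1104, 1117, 698 and 795 in Mye-/- and at 1198, 1227, 364 and 353 in fl/fl. The fl/fl libraries fell into a high and a low pair on either side of all Mye-/- values, and the coefficient of variation was 25.1% in Mye-/- and 62.8% in fl/fl. This gave a log2 difference of 0.37 ± 0.37 (SE). It was 0.09 without fl/fl S4, 0.07 without fl/fl S5, 0.66 without fl/fl S1, 0.67 without fl/fl S3 and 1.25 without fl/fl S1 and S3. The unnamed feature GSMG0068982 spans the Bbc3 exons and held 119 to 443 normalized reads in Mye-/- and 181 to 566 in fl/fl, so assignment of reads between them is uncertain.

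Bid (chr6:120891930-120916843, minus strand), whose product is cleaved by caspase-8 to link death receptors to mitochondria, was at 3187, 3137, 2949, 4274 and 3549 in Mye-/- and at 2813, 4128, 3824 and 3070 in fl/fl. The groups covered almost the same range, and the log2 difference was -0.01 ± 0.16 (SE), between -0.11 (fl/fl S1 left out) and 0.08 (fl/fl S3 left out) over the single libraries. Bad (chr19:6941855-6951905, plus strand), whose product is held inactive by phosphorylation downstream of growth factors, was at 2371, 2082, 2240, 2106 and 1838 in Mye-/- and at 2117, 3282, 2791 and 2164 in fl/fl. All Mye-/- values lay below the fl/fl median, with S9, S11 and S12 under the lowest fl/fl value. The log2 difference was -0.26 ± 0.17 (SE), and -0.14 without fl/fl S3. In the annotation (GENCODE), exons of Bid share 628 bases with Bcl2l13 and exons of Bad share 524 bases with Gpr137, each on the opposite strand, and without the strand setting such reads cannot be told apart.

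The effector genes overlapped between genotypes. Bax (chr7:45461695-45466898, minus strand) encodes a pore-forming protein that moves from the cytosol to mitochondria. It was at 4898, 5352, 6200, 6123 and 5957 in Mye-/- and at 7872, 5941, 5078 and 6269 in fl/fl. The highest value was in fl/fl S1 and the lowest in Mye-/- S8. Its log2 difference was -0.13 ± 0.14 (SE). It was -0.07 without Mye-/- S8, -0.01 when fl/fl S1 was left out, -0.23 when fl/fl S4 was left out, and 0.01 when both fl/fl S1 and S3 were. Bak1 (chr17:27019810-27028627, minus strand), whose product sits in the mitochondrial membrane, was at 1677, 1470, 1590, 1690 and 1671 in Mye-/- and at 1489, 975, 1582 and 1614 in fl/fl. Mye-/- libraries were tightly grouped, with a coefficient of variation of 5.70% in Mye-/- against 21.0% in fl/fl, where S3 was low. On the log2 scale the difference was 0.22 ± 0.19 (SE), 0.05 without fl/fl S3 and 0.02 without fl/fl S1 and S3. Exons of Bax overlap Gm45808 over 192 bases and those of Bak1 overlap Ggnbp1, so some reads may belong to these neighbours. The ratio of the length-scaled Bax level to that of Bak1 was 4.46 to 5.96 in Mye-/- and 8.07, 9.30, 4.90 and 5.93 in fl/fl.

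**Figure D2:**
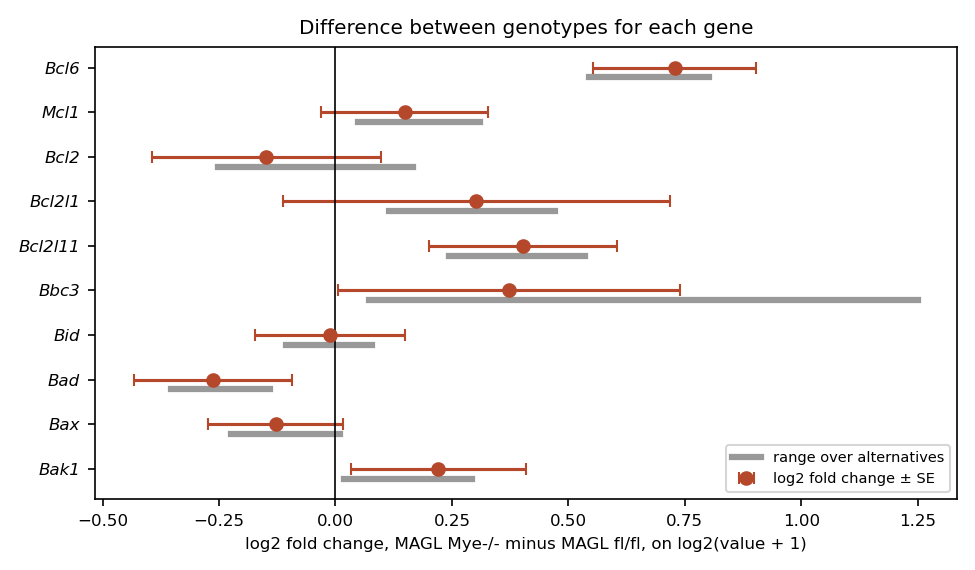
Log2 fold change (MAGL Mye-/- minus MAGL fl/fl) of each gene on the log2(value + 1) scale, with its SE (points and bars), and the range over 23 alternative analyses (grey lines). Bcl6 lies farthest from 0, at 0.73, and the grey line of Bbc3 is the longest, from 0.07 to 1.25.

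Across the genes, 6 of 10 were higher on average in Mye-/-, with a median log2 difference of 0.18, beside 54.6% of features higher and a median of 0.06 over all 15288 features tested. All 10 passed the filter on low values (at least 10 normalized reads in at least 4 libraries). Of the 10, 1 gene, Bcl6, did not overlap between genotypes, beside 3.30% of all features (1.70% higher and 1.60% lower in Mye-/-). With limma and an adjusted p under 0.05, 0 of the 10 were called, beside 0.0196% of features, and at an unadjusted p under 0.05 there was 1, Bcl6, beside 10.5% of features (6.38% higher and 4.13% lower in Mye-/-). On the recovered reads edgeR called 0 of the 10 (0.0131% of features) and DESeq2 called 1, Bcl6 (2.25% of the features to which it gave an adjusted p). Since the genes were chosen with this contrast known, these counts are a description.

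Levels of different genes were compared per kilobase of annotated exon. Mcl1, at 34362 ± 3994 normalized reads per kb in Mye-/- (SD, n = 5) and 31537 ± 8110 in fl/fl (SD, n = 4), exceeded Bax, at 3621 ± 356 in Mye-/- and 3991 ± 741 in fl/fl, in all 9 libraries. Bax in turn exceeded Bid in all 9 libraries. Bid, Bad, Bcl2l11, Bak1 and Bcl6 followed between 604 and 968 per kb on average over the 9 libraries. Within that stretch Bid was above Bad in 4 libraries of 9, Bcl2l11 above Bak1 in 5, and Bak1 above Bcl6 in 6. These neighbours did not differ beyond their spread. Bad was above Bcl2l11 in 8 libraries. Bcl6 was above Bbc3 in 7, but their values overlapped too, at 331 to 986 per kb for Bcl6 and 166 to 578 for Bbc3. Bbc3, at 393 ± 161 per kb over the 9 libraries (SD), exceeded Bcl2, at 102 ± 21.1, in all 9, and Bcl2 exceeded Bcl2l1, at 63.6 ± 18.3, in 8. Within genotypes, Bcl6 ranked 6 in Mye-/-, at 735 per kb, and 7 in fl/fl, at 440 per kb, and it exceeded Bbc3 in 5 of 5 Mye-/- and 2 of 4 fl/fl libraries. Scaled to the longest coding transcript instead, and over all 9 libraries, Bcl6 ranked 5 in place of 7, and Bcl2l11 and Bak1 each moved down by 1 rank.

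**Figure D3:**
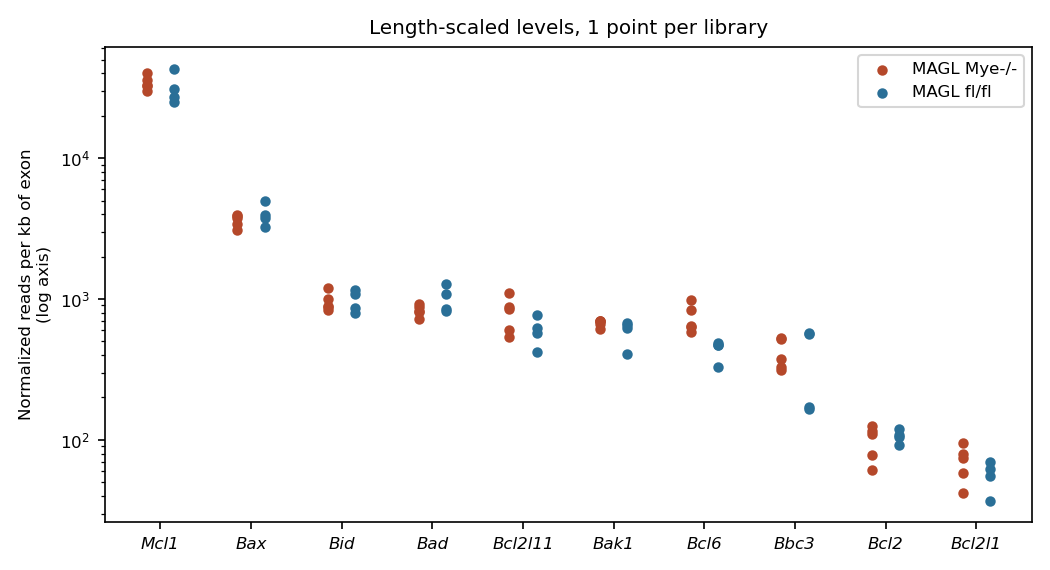
Normalized reads per kb of annotated exon (log axis) for each gene, ordered by the mean over 9 libraries, with 1 point per library, MAGL Mye-/- left and MAGL fl/fl right. Mcl1 lies above 24990 per kb in every library, and Bcl2 and Bcl2l1 lie lowest.

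Within the 9 Bcl2 family genes followed here, Mcl1 made up most of the summed length-scaled level, with 82.0% ± 2.03 in Mye-/- (SD, n = 5) and 80.0% ± 2.53 in fl/fl (SD, n = 4). Bax held 8.76% ± 1.52 in Mye-/- and 10.2% ± 0.486 in fl/fl, and Bcl2l11 held 1.88% ± 0.452 in Mye-/- and 1.52% ± 0.252 in fl/fl. The shares of all 9 genes overlapped between genotypes. With the 11 other tested family genes added, a pool of 20 genes that includes the A1 copies and Pmaip1, the Mcl1 share was 59.0% ± 3.33 in Mye-/- and 58.9% ± 0.398 in fl/fl. The 4 BH3-only genes together were at 3001 ± 246 per kb in Mye-/- and 2950 ± 386 in fl/fl, and the ratio of Bcl2l11 to Mcl1 was 0.0229 ± 0.00538 in Mye-/- and 0.0190 ± 0.00320 in fl/fl.

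Other genes of apoptosis and of BCL6 function were taken from 8 lists of 90 genes in all, of which 80 were tested. With limma, 0 of the 80 passed the adjusted threshold in either direction and 9 (11.25%) were under an unadjusted p of 0.05, beside 10.5% of all features tested. edgeR likewise called 0, beside 0.0131% of all features. DESeq2 called 1, Pmaip1, as higher in Mye-/-, beside 2.25% of all features to which it gave an adjusted p. It gave none to some of the 80. Of the 80, 48 (60.0%) were higher on average, beside 54.6% of all features, with a median log2 difference of 0.12 beside 0.06. These shares are near those of all features.

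Pmaip1, which encodes the BH3-only protein NOXA that antagonises MCL1, was at 12989, 15061, 16155, 14259 and 12985 normalized reads in Mye-/- and at 13471, 7498, 6320 and 7879 in fl/fl. Every Mye-/- library exceeded fl/fl S3, S4 and S5, while fl/fl S1 reached the Mye-/- level. This gave a log2 difference of 0.76 ± 0.18 (SE), with a limma adjusted p of 0.191 and a DESeq2 adjusted p of 0.0191. limma called it without fl/fl S1. Per kilobase, Pmaip1 (4336 over the 9 libraries) and the pro-survival A1 genes Bcl2a1b (4912) and Bcl2a1d (3099) stood beside Bax (3785), although reads of the near-identical A1 copies may be split uncertainly.

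Of the 11 tested genes of the wider Bcl2 family, 7 were higher and 4 lower (median 0.12). Bcl2l2, encoding pro-survival BCL-W, averaged 773 ± 119 in Mye-/- and 1037 ± 181 in fl/fl (limma adjusted p = 0.531), and Bcl2l12 averaged 336 ± 130 in Mye-/- and 588 ± 196 in fl/fl (adjusted p = 0.457). Bok, Bik, Hrk, Bcl2l10 and Bcl2a1c did not pass the filter, and Hrk and Bcl2l10 were at 0 in all libraries. Of the 12 apoptosome and executioner genes, 6 were higher and 6 lower (median 0.03). Among them Casp6, an executioner caspase, averaged 881 ± 230 in Mye-/- and 1286 ± 272 in fl/fl (adjusted p = 0.435), Endog, a mitochondrial nuclease, 254 ± 107 in Mye-/- and 451 ± 215 in fl/fl (adjusted p = 0.539), and Cycs, cytochrome c, 4892 ± 1112 in Mye-/- and 5950 ± 972 in fl/fl (adjusted p = 0.545).

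All 4 inhibitors of apoptosis were higher on average in Mye-/- (median 0.34), and 0 of 4 passed. Xiap, which blocks caspases directly, averaged 1827 ± 297 in Mye-/- and 1310 ± 296 in fl/fl (adjusted p = 0.393), Birc3, a ubiquitin ligase of TNF receptor signalling, 6707 ± 1050 in Mye-/- and 5496 ± 585 in fl/fl (adjusted p = 0.504), and Birc2 797 ± 99.2 in Mye-/- and 665 ± 333 in fl/fl (adjusted p = 0.683). In the death receptor pathway 7 of 9 genes were higher and 2 lower (median 0.14). Casp8, its initiator caspase, averaged 7438 ± 296 in Mye-/- and 6174 ± 1540 in fl/fl (adjusted p = 0.501), Tnfrsf1a, a TNF receptor, 11160 ± 1222 in Mye-/- and 9587 ± 1354 in fl/fl (adjusted p = 0.579), and the kinase Ripk1 2523 ± 144 in Mye-/- and 2255 ± 349 in fl/fl (adjusted p = 0.727).

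Of the genes of p53 and its targets, 5 of 11 were higher and 6 lower (median -0.04). Sesn1 averaged 694 ± 252 in Mye-/- and 410 ± 151 in fl/fl (adjusted p = 0.458), the cell-cycle inhibitor Cdkn1a 24792 ± 3095 in Mye-/- and 20372 ± 4497 in fl/fl (adjusted p = 0.504), and the p53 ligase Mdm2 8492 ± 808 in Mye-/- and 7490 ± 1762 in fl/fl (adjusted p = 0.666). Among 12 regulators of Bcl2 family level and activity, 5 were higher and 7 lower (median -0.05). Pim3, a kinase whose relatives phosphorylate BAD, averaged 3286 ± 144 in Mye-/- and 2388 ± 702 in fl/fl (adjusted p = 0.332). Foxo1, a FOXO factor, was at 712, 794, 1590, 756 and 1616 in Mye-/- and at 1658, 1514, 1929 and 1720 in fl/fl (adjusted p = 0.332), so S8, S9 and S11 were low while S10 and S12 reached the fl/fl range. Huwe1, a ubiquitin ligase of MCL1, averaged 10144 ± 1091 in Mye-/- and 12223 ± 1548 in fl/fl (adjusted p = 0.493).

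Corepressors and relatives of BCL6 were split, with 4 of 9 higher and 5 lower (median -0.08). Ctbp1 averaged 2725 ± 431 in Mye-/- and 3271 ± 70.7 in fl/fl (limma adjusted p = 0.536), Ncor1 584 ± 127 in Mye-/- and 792 ± 260 in fl/fl (adjusted p = 0.683), and Gps2 3024 ± 220 in Mye-/- and 2732 ± 239 in fl/fl (adjusted p = 0.750). Of 12 genes described as repressed by BCL6 in B cells, 10 were higher on average in Mye-/- and 2 lower (median 0.25), and 0 passed. Prdm1, which encodes BLIMP1, was at 649, 981, 1278, 737 and 824 in Mye-/- and at 525, 515, 535 and 574 in fl/fl. Its groups did not overlap, beside 3.30% of all features, and its limma adjusted p was 0.348. In the other lists, 1 apoptosome and executioner gene (higher) and 1 regulator of the Bcl2 family (lower) did not overlap either. Id2, an inhibitor of helix-loop-helix factors, averaged 14045 ± 1451 in Mye-/- and 9638 ± 2901 in fl/fl (limma adjusted p = 0.256, DESeq2 adjusted p = 0.0712), and the chemokine Ccl3 2351 ± 555 in Mye-/- and 1740 ± 729 in fl/fl (adjusted p = 0.476).

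**Figure D4:**
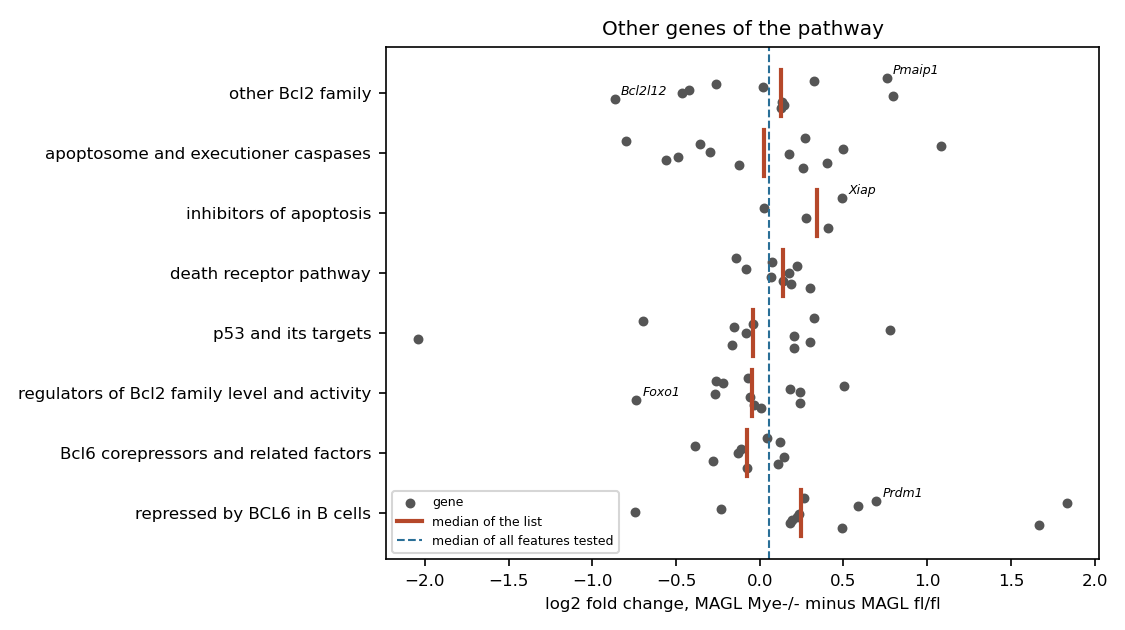
Log2 fold change (MAGL Mye-/- minus MAGL fl/fl) of each tested gene of 8 lists (points), with the median of each list (vertical bars) and the median of all features tested, 0.06 (dashed line). List medians run from -0.08 for BCL6 corepressors to 0.34 for inhibitors of apoptosis, and every list has genes on both sides of the dashed line.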

How the data were processed

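RNA from sorted liver macrophages was sequenced in 9 libraries. Per the submitters' processing notes, FastQC, Picard, SAMtools, STAR 2.4.0 and DESeq were used with mm10 and the FAST DB annotation; the strand setting of the counting is not given in the sources used here. The deposited table gives, for 59445 features, a normalized signal, the authors' read counts divided by a size factor per library. Whole reads were recovered from the steps of these values (100% whole within a tolerance of 0.01). No molecular identifiers were given, so reads are not independent molecules.

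Values were tested as log2(value + 1) with limma 3.58.1 (trend) in R 4.3.3 over 15288 features with at least 10 normalized reads in at least 4 libraries, all 9 libraries in the fit, no covariate, and Benjamini-Hochberg adjustment over all of them. edgeR 4.0.16 and DESeq2 1.42.0 were run on the recovered reads. The limma fit was checked on simulated data. Adjusted p-values in the report are limma's unless DESeq2 is named. The alternatives were another pseudocount, filter, scaling or variance model, an age term, 11-week-old mice alone, each library left out, and fl/fl S1 and S3 left out together.

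The members and lists were chosen with earlier results of these data known. Named genes are the 10 members, Mgll, for each list the 3 genes with the smallest limma p, and the 4 features closest in profile to Bcl6 and to Mcl1; Bcl2a1b and Bcl2a1d were named for their level, after their values were seen. Promoter windows and motifs came from the RefSeq table of GRCm38.p6, which held all 10 genes, and exon lengths from GENCODE M21.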

Additional observations from a re-analysis of the deposited data

Results flagged for a closer look

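In 90 groups (45 named genes in 2 genotypes), 4 had a library far from the others of its group, where chance flags about 1 group in 20. Bcl6 was lowest in fl/fl S1, at 2217.85 normalized reads, with the other fl/fl libraries at 3142 to 3252. Without fl/fl S1 the log2 difference of Bcl6 was 0.60. Birc3, a ubiquitin ligase of TNF receptor signalling, was highest in fl/fl S1, at 6372.69, with the other fl/fl libraries at 5161 to 5247. Pim3, a serine/threonine kinase, was lowest among Mye-/- libraries in S10, at 3031.55, with the other Mye-/- libraries at 3319 to 3390. Bcl2a1b, one of the near-identical A1 copies, was highest in fl/fl S1, at 6393.58, with the other fl/fl libraries at 2782 to 3366.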

How the results depend on the processing

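With the settings of the report, limma called 3 features, all higher in Mye-/-. The count was 17 with a pseudocount of 8, 6 with TMM scaling, 8 with quantile scaling, 9 with a robust fit, 21 without a variance trend, 0 with age as a covariate, 1 in 11-week-old mice alone, 124 with DESeq2 (58 higher, 66 lower), 9 without fl/fl S1 and S3, and 0 to 20 with each library left out (0 without Mye-/- S8 or S10, 1 without Mye-/- S11, 5 without fl/fl S3, 20 without fl/fl S5). DESeq2 with its own size factors, an alternative added after seeing the data, called 123. Of the 80 list genes 0 were called; the count was 1, Pmaip1, with DESeq2 under either set of size factors and without fl/fl S1 and S3, and 0 to 1 with each library left out (1 without fl/fl S1). The cause of these changes was not tested. Among the 10 genes, the log2 difference of 7 kept its sign in all 23 alternatives, that of Bax in 22, Bcl2 in 20 and Bid in 17. Only Bbc3 moved by more than 1 SD, to 1.25 without fl/fl S1 and S3. No paired analysis was possible because the groups share no replicate numbers. Depth limits Bcl2l1 most, with as few as 146 reads in a library.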
